A study of Homo sapiens with 34 samples.

Results

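The NF-kappaB target genes described here are 10 rows of a table of 26336 genes, chosen by symbol. They are TRAF1, BIRC3, NFKBIA, TNFAIP3, NFKB2, ICAM1, CXCL1, CXCL8, IL6 and CCL20, and each was found once. NF-kappaB is a family of dimeric transcription factors held in the cytoplasm by inhibitor proteins. Ligands such as TNF and interleukin-1 lead to the breakdown of the inhibitors, and the freed dimers switch on genes of inflammation, survival and feedback control. A slower branch depends on processing of the NFKB2 protein and uses RELB as partner. In prostate cancer the pathway has been studied for its links to inflammation, cell survival and growth in bone.

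RNA with poly(A) tails was sequenced from 4 lines of human prostate cells and counted per gene. RWPE is a non-tumorigenic prostate epithelial line grown in serum-free keratinocyte medium, LNCaP came from a lymph node metastasis, and VCaP and MDAPCa2a came from bone metastases and were grown in medium with serum. Cells grew on tissue culture plastic or on a coating of amorphous calcium phosphate (ACP), a mineral used as a stand-in for bone. MDAPCa2a cells on plastic also had an FNC protein coating, which was left off ACP, so that the loss of this coating and the presence of ACP cannot be told apart in that line. Cells were fed the control medium of their line, a medium whose serum had been stripped with charcoal and dextran to lower its steroids, or stripped medium with androgen at a labelled 100 mM. Sample titles call the androgen DHT, and the condition labels and the treatment protocol call it testosterone. RWPE has control libraries on plastic and ACP and androgen libraries on ACP. LNCaP and VCaP have all of control and stripped on plastic and control, stripped and androgen on ACP. MDAPCa2a has control and stripped on plastic and stripped and androgen on ACP. Plastic control libraries are labelled as continuous culture and all others as day 4. Of the 17 groups, RWPE on ACP with androgen had 3 libraries, VCaP on plastic in stripped serum had 1, and the other groups had 2. No label says that replicates were separate cultures, so p-values measure the spread between these libraries, which may be technical.

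The 34 libraries held 15440141 to 44779246 counts each. Marker genes matched the labelled lines. The summed level of 6 basal epithelial markers was 4437 to 21529 CPM (read counts scaled by library size) in RWPE and 2.49 to 56.6 CPM elsewhere. ERG, which is active in VCaP through a known gene fusion, was at 126 to 882 CPM in VCaP and at most 2.32 CPM in the other lines. FGG had reads in all 8 plastic control libraries but was at 0 in 25 of the other 26, and in every comparison with plastic control the library set and the condition cannot be told apart. A difference in a bulk level can come from fewer cells that make the RNA or from less RNA per cell, and the counts cannot separate these.

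To show where NF-kappaB could bind, the 250 bases before each annotated start were read from RefSeq (GRCh38.p14). The 10 genes had 14 such windows. Both strands were searched for the 10-base NF-kappaB consensus, by name, and for GGANNTTCC, and the same bases could match both. Of the 14 windows, 10 (71.4%) held a match to either motif, beside 7.99% of 35116 windows of all genes. The consensus was in 8 member windows (5.21% of all windows) and GGANNTTCC was in 7 (3.84% of all windows). The 3 windows of TRAF1 held neither, which says only that these letters are not there. The stretches below show matches of 8 genes that the results describe in most detail, 1 stretch a gene, written on the gene's own strand with the matched bases in capitals. All lie upstream of the start site, outside exons of that transcript. For NFKB2 the stretch is from its second annotated start, and for NFKBIA a match farther upstream is not shown.

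CXCL1, chr4:73869294-73869344, plus strand: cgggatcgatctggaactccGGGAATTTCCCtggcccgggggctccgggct
CXCL8, chr4:73740458-73740506, plus strand: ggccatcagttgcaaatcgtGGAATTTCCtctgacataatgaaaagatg
CCL20, chr2:227813743-227813792, plus strand: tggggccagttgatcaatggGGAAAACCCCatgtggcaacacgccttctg
TNFAIP3, chr6:137867172-137867233, plus strand: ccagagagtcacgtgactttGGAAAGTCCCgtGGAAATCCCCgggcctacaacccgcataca
NFKBIA, chr14:35404801-35404850, minus strand: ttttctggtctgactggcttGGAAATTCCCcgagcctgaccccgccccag
NFKB2, chr10:102394451-102394529, plus strand: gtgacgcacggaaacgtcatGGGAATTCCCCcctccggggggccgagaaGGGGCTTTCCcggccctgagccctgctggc
BIRC3, chr11:102317265-102317378, plus strand: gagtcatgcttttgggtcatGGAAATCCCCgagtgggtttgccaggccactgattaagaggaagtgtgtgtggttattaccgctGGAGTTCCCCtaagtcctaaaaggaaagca
ICAM1, chr19:10270914-10270962, plus strand: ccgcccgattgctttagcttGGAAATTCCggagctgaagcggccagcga

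The closest match lay at positions -21 to -12 from the third annotated start of NFKB2, and CXCL1, CXCL8, TNFAIP3, IL6, CCL20 and NFKBIA each had a match within 100 bases of the start. The matches of ICAM1 and BIRC3 lay farther out, at positions -186 to -178 in ICAM1 and -199 to -190 and -135 to -126 in BIRC3.

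**Figure D1:**
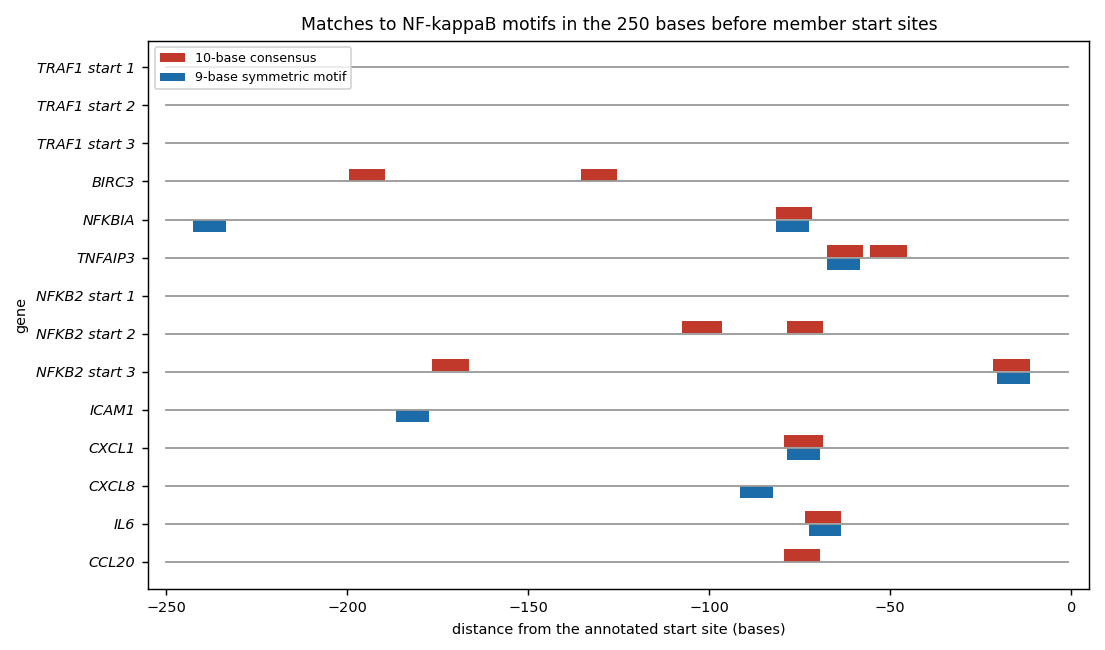
Matches to the NF-kappaB consensus (red) and to the symmetric GGANNTTCC motif (blue) on either strand in the 250 bases before the 14 annotated starts of the 10 genes; the x axis is the distance from the start site in bases. All windows but 4 hold a match, and the empty ones are the 3 of TRAF1 and 1 of NFKB2.

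The 10 genes differed in how often they were seen. BIRC3, NFKBIA, TNFAIP3, NFKB2 and ICAM1 had reads in all 34 libraries, TRAF1 had 0 reads in 2, CXCL8 in 4, CCL20 in 10, CXCL1 in 12 and IL6 in 27. IL6, an inflammatory cytokine, had 20 reads in all libraries together, of which 10 lay in 1 RWPE plastic control library, and it passed the filter for low counts in no fit. The filter passed 8 members in RWPE (not CXCL1 or IL6), 9 in VCaP (not IL6) and 6 in LNCaP and MDAPCa2a (not CXCL1, CXCL8, CCL20 or IL6). In the fit of all lines 9 passed.

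**Figure D2:**
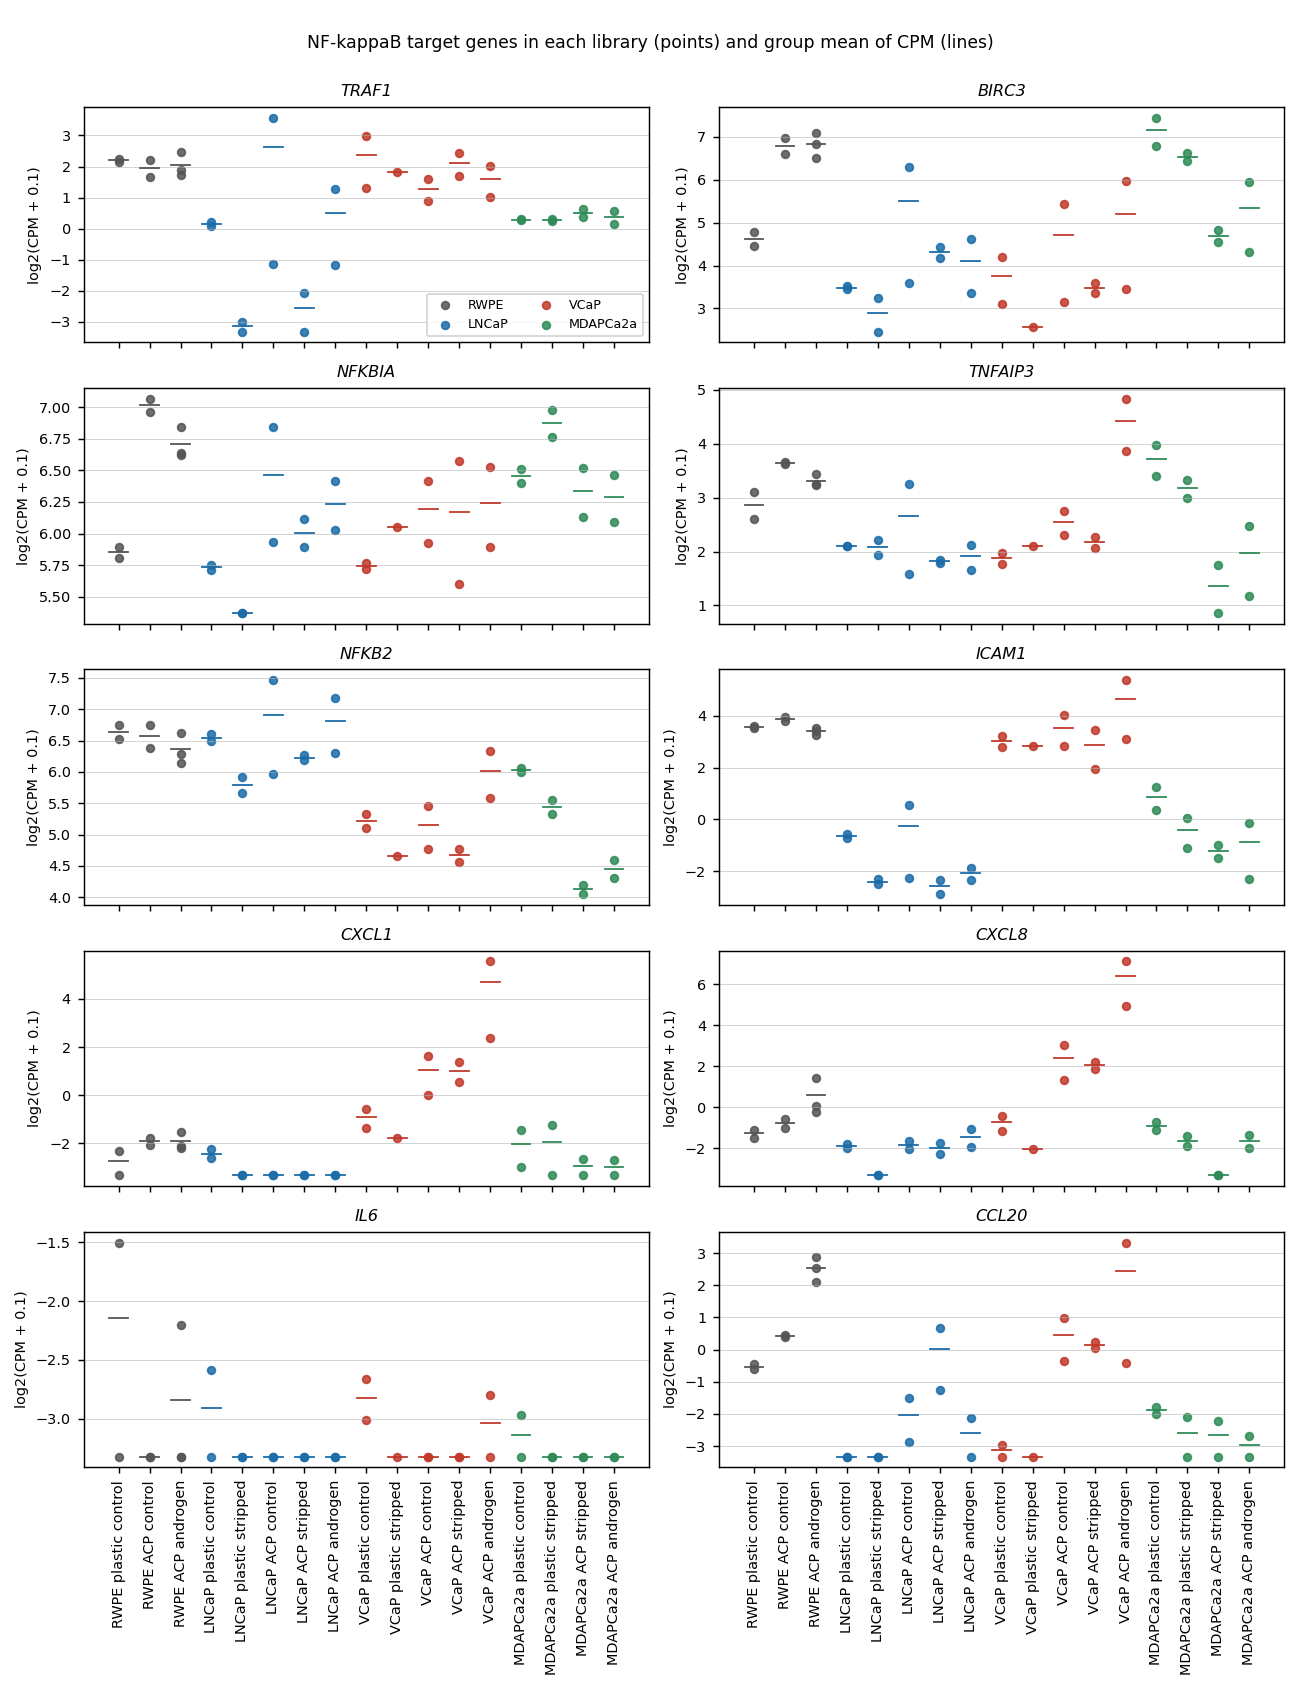
Level of each of the 10 genes in log2(CPM + 0.1) in every library (points) by group, with the group mean of CPM as a line and the line of origin as colour. CXCL1 and CXCL8 are highest in the 2 VCaP androgen libraries, BIRC3 is high in MDAPCa2a on plastic and in RWPE on ACP, and the 2 LNCaP control libraries on ACP lie far apart for 6 genes.

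Of the comparisons within a line, androgen added to stripped serum in VCaP cells on ACP had the most members called. TNFAIP3, NFKB2, CXCL1 and CXCL8 rose, 4 of the 9 members tested, where 17.5% of all genes tested passed edgeR's quasi-likelihood test with Benjamini-Hochberg adjustment below 0.05. The median log2 change of the 9 was 1.80, beside -0.03 for all genes. Markers of other cells and of interferon also moved in these libraries, and their values follow the genes.

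CXCL8, the neutrophil-attracting chemokine interleukin-8, had 72 and 111 reads (3.51 and 4.55 CPM) in the 2 stripped libraries and 714 and 3180 reads (30.9 and 139 CPM) in the 2 androgen libraries. Both androgen libraries lay above both stripped libraries, and they differed from each other as well. Its log2 change was 4.40 ± 0.75 (SE; edgeR adjusted p = 0.00555). Without stripped replicate 1 the adjusted p was 0.0543, and the log2 change ran from 2.93 to 5.13 when 1 library at a time was left out. CXCL1, a chemokine that acts on the same receptor family, had 28 and 61 reads in stripped serum and 117 and 1071 with androgen (1.37, 2.50, 5.06 and 46.9 CPM). The groups did not overlap, and most of the androgen reads came from replicate 2. The log2 change of CXCL1 was 3.74 ± 0.94 (edgeR adjusted p = 0.0238), and it ran from 1.38 to 4.61 with 1 library left out. The call was lost without either stripped library or androgen replicate 2, where the highest adjusted p was 0.303.

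TNFAIP3, which encodes the A20 enzyme that shuts the pathway down, was at 4.10 and 4.75 CPM in stripped serum and at 14.5 and 28.3 CPM with androgen. This was the member with the firmest rise: its log2 change of 2.28 ± 0.38 (edgeR adjusted p = 0.00493) stayed past the threshold without each of the 4 libraries in turn, from 1.71 to 2.70, with a highest adjusted p of 0.0411. NFKB2, the precursor subunit of the slower branch, rose from 27.2 and 23.5 CPM to 47.9 and 80.6 CPM. The groups did not overlap, and the log2 change was 1.35 ± 0.30 (edgeR adjusted p = 0.0166). That call was lost without either stripped library or androgen replicate 2, and the log2 change then lay between 0.92 and 1.69 over the libraries left out.

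The other members did not pass. ICAM1, an adhesion molecule for leukocytes, was at 10.7 and 3.73 CPM in stripped serum and at 8.53 and 41.5 CPM with androgen, so that the groups overlapped (log2 1.80, edgeR adjusted p = 0.106). CCL20, a chemokine for lymphocytes and dendritic cells, had 22 and 23 reads in stripped serum and 15 and 227 with androgen. It also overlapped (log2 2.40, edgeR adjusted p = 0.125). BIRC3, an inhibitor of cell death that also modifies signalling proteins of the pathway, was at 10.2 and 11.9 CPM against 10.8 and 63.0 CPM. NFKBIA, the inhibitor that NF-kappaB itself induces, was at 95.2 and 48.4 CPM against 59.2 and 91.9 CPM. TRAF1, an adaptor of TNF receptors, was at 3.12 and 5.33 CPM against 3.98 and 1.93 CPM. All of these overlapped, and the androgen replicate 2 library held the highest value of ICAM1, CCL20 and BIRC3.

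That library stands apart for interferon genes too. The summed level of 8 interferon-induced genes was 37.0 CPM in androgen replicate 1 and 410 CPM in replicate 2, beside 22.0 to 66.5 CPM in the other VCaP libraries. CXCL10, an NF-kappaB and interferon target named after its values were seen, had 75 and 3749 reads, and CCL2, named likewise, had 100 and 2161. The summed level of 10 monocyte and macrophage markers was 82.7 and 156 CPM in the androgen libraries and 1.78 to 14.3 CPM in the other VCaP libraries. Nearly all of it was LYZ, with 1877 and 3513 reads. Of the other 9, CD14 had 32 and 38 reads, beside 35 and 40 in stripped serum, PTPRC had 0 and 1, CSF1R 3 and 2 and ITGAM 0 and 3, and AIF1, C1QA, C1QB, FCGR3A and MARCO were at 0. Of 5 endothelial markers 2 rose by edgeR's test. PECAM1 went from 0 and 16 reads to 183 and 200 and VWF from 14 and 19 to 97 and 77, while CDH5 was at 0 in all 4 libraries, and the list summed to 0.83 and 1.60 CPM in stripped serum and 12.4 CPM in both androgen libraries. Of 6 fibroblast markers 3 fell, among them LUM from 752 and 3723 reads to 29 and 94, and the list summed to 41.5 and 163 CPM against 7.75 and 8.63 CPM. The summed level of RPPH1 and RMRP, which lack a poly(A) tail and are read here as a sign of RNA selection, was 22.1 and 26.3 CPM in stripped serum and 179 and 129 CPM with androgen. The part of these lists in the members' rise was not tested.

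Against control medium on ACP, the VCaP androgen libraries gave 3 calls among 9 members, beside 5.99% of all genes. The androgen libraries are the same as above, so these values are no second observation of them. CXCL8 was at 8.12 and 2.42 CPM in control medium (log2 4.03 ± 0.73, edgeR adjusted p = 0.0158), CXCL1 at 3.01 and 0.907 CPM (3.76 ± 0.94, adjusted p = 0.0451) and TNFAIP3 at 6.62 and 4.84 CPM (1.92 ± 0.37, adjusted p = 0.0191). Each of these was lost without androgen replicate 2, with log2 changes of at least 1.36 over all libraries left out. The calls of CXCL1 and TNFAIP3 were also lost without either control library, and that of CXCL8 without control replicate 2. With stripped serum instead of control medium on ACP, edgeR called none of the 9 members in VCaP, where 0.82% of genes passed, and none had an unadjusted p below 0.05.

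Of 73 other genes of the pathway on lists of ligands, receptors, adaptors and kinases, subunits, inhibitors and other targets, 58 were tested in VCaP. With androgen against stripped serum on ACP 6 rose and 2 fell, which is 13.8% of those tested and below the 17.5% of all genes. The chemokine CXCL6 went from 5 and 10 reads to 64 and 117 (log2 3.56 ± 0.80, edgeR adjusted p = 0.0158). The receptor of RANK ligand, TNFRSF11A, went from 150 and 159 reads to 354 and 608 (1.60 ± 0.42, adjusted p = 0.0295), and the inhibitor NFKBIB rose by 1.08 ± 0.27 (adjusted p = 0.0246). MAP3K14, the kinase that starts the slower branch, fell from 259 and 214 reads to 132 and 114 (log2 -1.0 ± 0.29, adjusted p = 0.0396). None of the 4 subunit genes RELA, RELB, REL and NFKB1 passed. Against control medium 3 of the 58 rose and none fell, which is 5.17% and below the 5.99% of all genes. Among the 3 was the interleukin-1 receptor IL1R1 (1.15 ± 0.27, adjusted p = 0.0379).

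Androgen gave no such calls in the other lines that had stripped serum. In LNCaP edgeR called 0 of 6 members with androgen against stripped serum on ACP, beside 7.73% of all genes. Before adjustment 1 member, TRAF1, was below 0.05, beside 3518 of 14656 genes. TRAF1 had 0 and 4 reads in stripped serum and 10 and 71 with androgen, a ratio of 20.2 (95% interval of counting error only, 7.60 to 76.0), with an edgeR adjusted p of 0.157. TNFAIP3 was at 3.36 and 3.50 CPM against 3.08 and 4.28 CPM, and NFKB2 at 77.3 and 72.6 CPM against 78.8 and 145 CPM. The chemokines of LNCaP had few reads and were not tested, with CXCL8 at 3 to 11 reads and CXCL1 at 0 in all 6 ACP libraries, and CCL20 at 10 and 43 reads in stripped serum and 0 and 4 with androgen. In MDAPCa2a edgeR called 0 of 6, beside 0% of all genes, and no member had an unadjusted p below 0.05. There the 2 androgen libraries differed, with BIRC3 at 61.7 and 19.8 CPM and TNFAIP3 at 5.44 and 2.17 CPM.

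The difference between the VCaP and LNCaP androgen effects was tested itself in the fit of all lines. It passed for 2 of 9 members, beside 10.9% of all genes, with an adjusted p of 0.0221 for TNFAIP3 (difference of log2 changes 2.17 ± 0.61) and of 0.0125 for CCL20 (6.07 ± 1.52). For CXCL8 the difference was 3.58 ± 1.27 with an adjusted p of 0.0732. CCL20 had 10 and 43 reads in LNCaP stripped serum on ACP and 0 and 4 with androgen. CXCL1, CXCL8 and CCL20 had failed the filter in LNCaP and entered this fit through other lines. CXCL8 had 3 to 11 reads per LNCaP library in these groups and CXCL1 had 0, so their differences rest on counts near the floor. In VCaP alone the groups of CCL20 overlapped and it was not called, so that much of its difference rests on these low LNCaP counts. The calls were lost for both genes without LNCaP stripped replicate 2, LNCaP androgen replicate 1 or VCaP androgen replicate 2, and for TNFAIP3 also without LNCaP stripped replicate 1 or VCaP stripped replicate 1.

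In RWPE, the androgen medium on ACP can be set only against control medium, since RWPE has no stripped libraries, and the change of medium and the androgen cannot be told apart. CCL20 rose, 1 of 8 members tested, beside 19.1% of all genes. It had 37 and 25 reads in control medium and 92, 71 and 161 with androgen (1.26 and 1.22 against 5.76, 4.17 and 7.26 CPM). All 3 androgen libraries lay above both control libraries, with a log2 change of 2.23 ± 0.33 (edgeR adjusted p = 0.0162). The call was lost without either control library, at a highest adjusted p of 0.275, and in the fit of all lines (adjusted p = 0.072). CXCL8 was at 0.579 and 0.390 CPM in control medium and at 2.57, 0.940 and 0.767 CPM with androgen (log2 1.53, edgeR adjusted p = 0.102). ICAM1 was at 15.6 and 13.8 CPM against 9.45, 10.6 and 11.5 CPM (log2 -0.46, adjusted p = 0.086). BIRC3 and NFKB2 overlapped between the groups.

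Of the 73 other pathway genes, 60 were tested in RWPE, and 7 rose and 7 fell with the androgen medium, 23.3% beside the 19.1% of all genes. CXCL2, a close relative of CXCL1, went from 57 and 39 reads to 219, 95 and 240 (log2 2.40 ± 0.42, edgeR adjusted p = 0.017). IL1A, a ligand of the interleukin-1 receptor, rose by 0.80 ± 0.24 (adjusted p = 0.0416) and the kinase IRAK4 by 0.86 ± 0.22 (adjusted p = 0.0254). CCL5 fell from 226 and 184 reads to 20, 73 and 25 (log2 -1.90 ± 0.53, adjusted p = 0.0348), and MYD88, the adaptor of interleukin-1 and Toll-like receptors, changed by -0.93 ± 0.16 (adjusted p = 0.017). Libraries of this group were not alike in other lists. Androgen replicate 2 had 713 CPM of interferon genes and 14215 CPM of basal markers, while the others had 210 to 220 CPM and 4437 to 5064 CPM. RPPH1 and RMRP summed to 327, 8.40 and 6.86 CPM in the 3 androgen libraries. The part of this in the members' values was not tested.

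**Figure D3:**
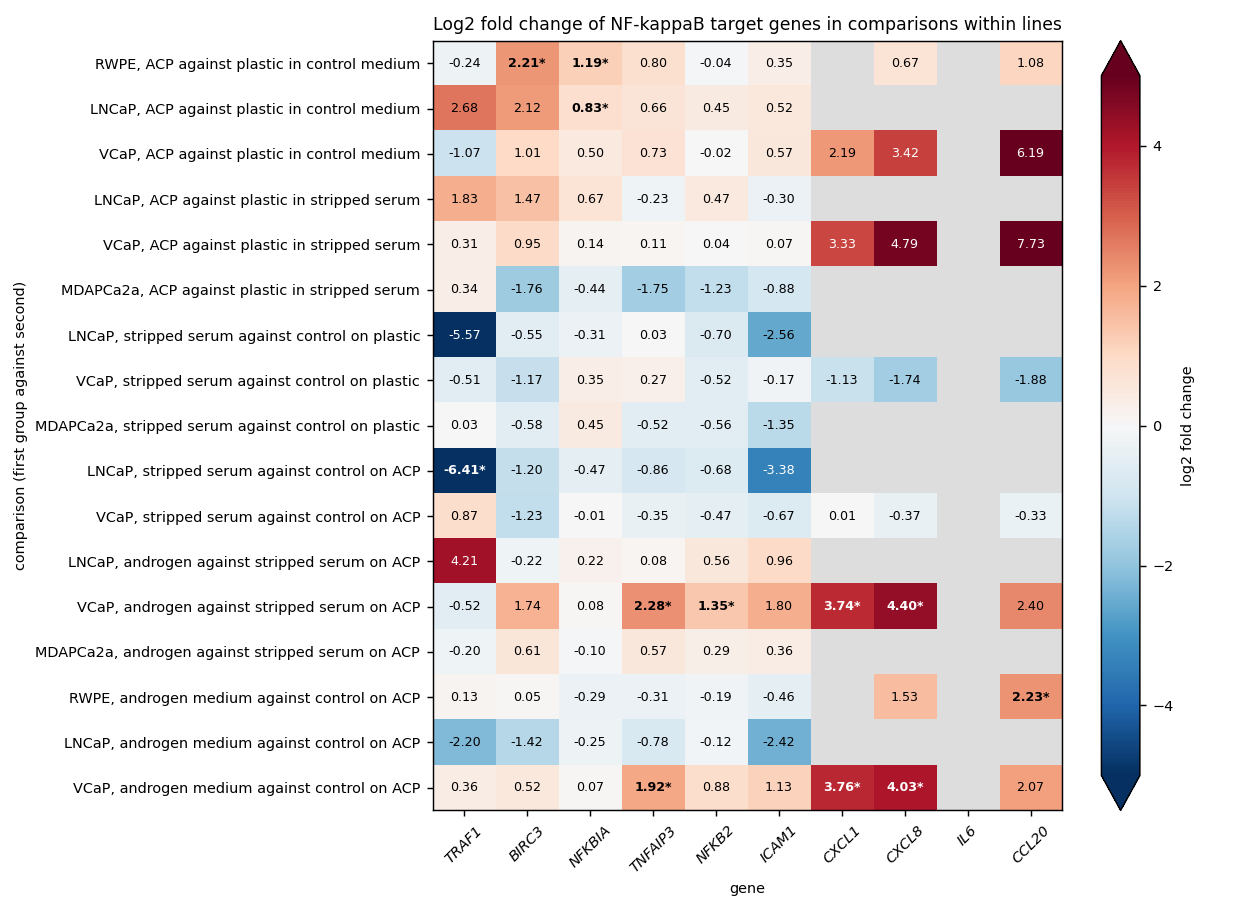
Log2 fold change of each gene (columns) in 17 comparisons within lines (rows, first group against second), with red for higher, blue for lower, grey for genes not tested and an asterisk for edgeR adjusted p below 0.05. Calls stand in the RWPE and LNCaP surface rows, in LNCaP stripped against control on ACP, in both VCaP androgen rows and in the RWPE androgen row; fitted values beyond 5 rest on groups with 0 to 4 reads and depend on the prior count.

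ACP against plastic was compared first in control medium. In RWPE, BIRC3 and NFKBIA rose, 2 of 8 members tested, beside 4.16% of all genes. BIRC3 had 21.7 and 27.5 CPM on plastic and 97.8 and 125 CPM on ACP (log2 2.21 ± 0.25, edgeR adjusted p = 0.00342). NFKBIA had 55.9 and 59.2 CPM on plastic and 134 and 125 CPM on ACP (log2 1.19 ± 0.17, adjusted p = 0.00916). For both genes the groups stood far apart relative to the gap between replicates. The BIRC3 call was lost without either ACP library (log2 1.99 to 2.39) and in the fit of all lines (adjusted p = 0.0862), and the NFKBIA call without any 1 of the 4 libraries (log2 1.14 to 1.24, highest adjusted p 0.147). RPPH1 and RMRP rose with this comparison too, from a summed 0.398 and 0.936 CPM on plastic to 203 and 188 CPM on ACP. CD14 also rose, from 97 and 138 reads to 240 and 166. Of the other monocyte and macrophage markers, CSF1R was also higher, at a mean of 2.57 CPM on plastic and 4.43 CPM on ACP. Not all followed, with ITGAM at a mean of 0.55 and 0.58 CPM and PTPRC at 5 and 2 against 0 and 0 reads. The fibroblast markers COL1A2 and COL3A1 fell, while COL1A1, the highest of that list, was at a mean of 26.7 CPM on plastic and 28.9 CPM on ACP. Their part in the rise of BIRC3 and NFKBIA was not tested.

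Other RWPE members stayed short of the threshold. TNFAIP3 was at 6.0 and 8.45 CPM on plastic and at 12.5 and 12.3 CPM on ACP (log2 0.80, edgeR adjusted p = 0.071), and CCL20 had 21 and 25 reads against 37 and 25 (log2 1.08, adjusted p = 0.131). TRAF1 and NFKB2 overlapped between the surfaces. In the androgen medium on ACP, BIRC3 was at 113, 136 and 91.2 CPM and NFKBIA at 98.6, 115 and 99.8 CPM. Among the 60 other pathway genes tested, the acute phase gene SAA1 rose from 128 and 255 reads to 1790 and 1068 (log2 3.54 ± 0.48, adjusted p = 0.0075). The early response gene IER3 and the receptor gene TNFRSF12A fell, IER3 by 1.76 ± 0.29 on the log2 scale (adjusted p = 0.013).

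In LNCaP 1 of 6 members passed, beside 12.6% of all genes. NFKBIA had 53.7 and 52.4 CPM on plastic and 60.9 and 115 CPM on ACP (log2 0.83 ± 0.24, edgeR adjusted p = 0.0477). Both ACP libraries lay above plastic, but the call was lost without either plastic library or without ACP control replicate 2 (log2 0.30 to 1.18) and in the fit of all lines (adjusted p = 0.113). BIRC3 was at 11.3 and 10.8 CPM on plastic and at 11.9 and 78.8 CPM on ACP (log2 2.12, adjusted p = 0.057). TRAF1 had 45 and 48 reads on plastic and 10 and 323 on ACP, so that the ACP libraries lay on either side of plastic (log2 2.68, adjusted p = 0.129).

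In VCaP edgeR called 0 of 9 members, beside 0.0448% of all genes. An unadjusted p below 0.05 was reached by CXCL8 and CCL20, beside 1123 of 15614 genes. By DESeq2 1 member passed, for which no share of all genes was worked out. CXCL8 had 12 and 27 reads on plastic and 173 and 56 on ACP, with no overlap (log2 3.42 ± 0.80, edgeR adjusted p = 0.455). CCL20 had 1 and 0 reads on plastic and 40 and 16 on ACP. The ratio of the summed reads was 95.5, with a 95% interval from 16.5 to 3838 that covers counting error only (adjusted p = 0.508). CXCL1 had 10 and 24 reads against 64 and 21, and BIRC3, ICAM1 and NFKB2 overlapped. The difference between the ACP effects of LNCaP and RWPE passed for 0 of 9 members by edgeR and by DESeq2, beside 0.156% of all genes by edgeR. An unadjusted p below 0.05 was found for 1 member, beside 1625 of 17323 genes.

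In stripped serum edgeR called no member on ACP against plastic in any of the 3 lines. In LNCaP that was 0 of 6, beside 6.12% of all genes. Before adjustment 3743 of 14656 genes were below 0.05, and of the members NFKBIA alone. It was at 41.2 and 41.3 CPM on plastic and at 69.0 and 59.2 CPM on ACP (log2 0.67, adjusted p = 0.118), and BIRC3 was at 5.39 and 9.33 CPM against 17.9 and 21.7 CPM (log2 1.47, adjusted p = 0.197). Neither overlapped. CCL20, which the filter left out, had 0 reads in both plastic libraries and 10 and 43 on ACP, at least 17.4-fold higher for a limit of 3 reads over the group. For the difference of the ACP effect between the media, edgeR and DESeq2 called 0 of 6, beside 0.307% of all genes, and no member had an unadjusted p below 0.05.

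Other genes of the pathway did pass in LNCaP in stripped serum, 6 of 53 (11.3%, beside 6.12% of all genes), and each was higher on ACP. NFKBIZ, an atypical nuclear member of the inhibitor family, went from 48 and 20 reads to 722 and 862 (log2 4.59 ± 0.30, edgeR adjusted p = 3.83e-05). In control medium NFKBIZ had 120 and 109 reads on plastic and 31 and 57 on ACP, so that no rise on ACP was seen there. Within ACP, NFKBIZ was higher in stripped serum than in control medium (log2 4.05 ± 0.29, edgeR adjusted p = 8.51e-05). RELB, the partner subunit of NFKB2, went from 65 and 25 reads to 223 and 163 (2.15 ± 0.54, adjusted p = 0.042). TNFSF10, which encodes the death ligand TRAIL, went from 61 and 27 reads to 219 and 210 (2.32 ± 0.52, adjusted p = 0.0266).

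In VCaP in stripped serum 0 of 9 members passed by edgeR and DESeq2, beside 0% of all genes by edgeR. Before adjustment 2 members were below 0.05, beside 511 of 15614 genes. The plastic group is a single library, assumed here to vary like the other groups. It had 3 reads of CXCL8 against 72 and 111 on ACP, a ratio of 28.3 (95% counting interval 9.53 to 138), and 0 reads of CCL20 against 22 and 23, at least 6.95-fold higher on ACP. CXCL1 had 4 reads against 28 and 61, a ratio of 10.3 (3.89 to 38.7). In control and in stripped medium the mean CPM of these 3 chemokines was higher on ACP, with no call by edgeR in either.

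MDAPCa2a was the line in which 5 of the 6 tested members lay lower on ACP. EdgeR called 0 of 6, beside 0.00734% of all genes. Before adjustment 3 members were below 0.05, beside 2071 of 13626 genes. DESeq2 called 3, for which no share of all genes was worked out. NFKB2 was at 46.7 and 40.1 CPM on plastic and at 16.5 and 18.3 CPM on ACP (log2 -1.23 ± 0.17, edgeR adjusted p = 0.084). BIRC3 was at 87.1 and 99.1 CPM against 28.2 and 23.5 CPM (log2 -1.76 ± 0.46, adjusted p = 0.218). TNFAIP3 was at 9.92 and 7.87 CPM against 1.72 and 3.25 CPM (log2 -1.75 ± 0.45, adjusted p = 0.218). None of the 3 overlapped, and the share of all genes without overlap was not worked out. CXCL8, which was not tested, had 5 and 7 reads on plastic and 0 on ACP. The median log2 change of the 6 was -1.06, beside 0.03 for all genes.

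The difference of the ACP effects in stripped serum, LNCaP minus MDAPCa2a, passed for 0 of 9 members by edgeR, beside 0.358% of all genes. All 9 fitted differences were above 0, and 6 had an unadjusted p below 0.05, beside 1618 of 17323 genes. CXCL1, CXCL8 and CCL20 had failed the filter in both lines and entered this fit through the other lines. In stripped serum LNCaP had 0 reads of CXCL1 on both surfaces and 0 to 4 reads of TRAF1 per library. Fitted differences of such genes depend on the prior count, so the shared sign of the 9 cannot be read as a result. The difference for BIRC3 was 3.30 ± 1.05 (edgeR adjusted p = 0.204) and for NFKB2 1.75 ± 0.48 (adjusted p = 0.111). DESeq2 called 2 of the 9, for which no share of all genes was worked out. Of the 46 other pathway genes tested in MDAPCa2a none passed between the surfaces, beside 0.00734% of all genes.

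Stripping the serum was compared with control medium on each surface. On plastic edgeR called 0 of 6 members in LNCaP (beside 9.45% of all genes), 0 of 9 in VCaP (0.89%) and 0 of 6 in MDAPCa2a (1.58%). Before adjustment 2, 0 and 1 members were below 0.05, beside 3668 of 14656, 3102 of 15614 and 2208 of 13626 genes. By DESeq2 none passed in any of the 3. In LNCaP TRAF1 had 45 and 48 reads in control medium and 1 and 0 in stripped serum, a ratio of 58.8 (95% counting interval 10.3 to 2348), with an edgeR adjusted p of 0.137. ICAM1 had 24 and 26 reads against 3 and 2 (adjusted p = 0.151). Neither overlapped, with no share of all genes to set beside it, and both genes have few reads in this line. In MDAPCa2a NFKB2 was at 67.0 and 63.7 CPM in control medium and at 46.7 and 40.1 CPM in stripped serum (log2 -0.56 ± 0.17, adjusted p = 0.141). These comparisons have plastic control on one side, with the limit given above.

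On ACP in LNCaP 1 of 6 members passed, beside 5.37% of all genes. TRAF1 had 10 and 323 reads in control medium and 0 and 4 in stripped serum, a ratio of 89.5 (95% counting interval 34.6 to 330), with an edgeR adjusted p of 0.0433. The call was lost without control replicate 2 or either stripped library. ICAM1 had 3 and 37 reads against 3 and 1 (adjusted p = 0.0961). The log2 change of TRAF1 ran from -10.7 to -2.38 with 1 library left out. Without 1 of the control libraries the control arm is a single library, assumed to vary like the other groups. Against the same control libraries, androgen medium in LNCaP gave 0 of 6 calls by edgeR and DESeq2, beside 15.1% of all genes by edgeR. Before adjustment 1 member was below 0.05, beside 4596 of 14656 genes.

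These control libraries of LNCaP on ACP differed from each other more than those of any other pair in TRAF1. TRAF1 was at 0.358 and 11.8 CPM in replicates 1 and 2, a gap that 0.0322% of 12423 genes with at least 1 CPM in the group exceeded. BIRC3 was at 11.9 and 78.8 CPM (0.394% of genes had a larger gap), ICAM1 at 0.107 and 1.35 CPM (0.362%) and TNFAIP3 at 2.90 and 9.49 CPM (1.27%). NFKB2 was at 62.7 and 176 CPM (1.68%) and NFKBIA at 60.9 and 115 CPM (5.34%). All 6 were higher in replicate 2, while CXCL1 had 0 reads in both, CXCL8 4 and 6, and CCL20 7 and 1. The ligand gene TNF had 1 and 76 reads, RELB 95 and 331 and ITGAM, a myeloid integrin, 9 and 107 (named after their values were seen). The 10 monocyte and macrophage markers summed to 0.61 and 4.45 CPM, and ITGAM made up most of the higher value, with PTPRC at 1 and 2 reads, C1QA and CD14 at 0 in both. The 6 basal markers summed to 2.86 and 21.9 CPM, with KRT5 at 0 and 208 reads, and RPPH1 and RMRP to 163 and 13.5 CPM, the other way round. The part of these in the members' gaps was not tested. TNF in the other LNCaP libraries was at 0 to 11 reads.

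In VCaP the gaps fell partly on the same members. In control medium on ACP, replicates 1 and 2 were at 43.4 and 8.81 CPM for BIRC3, 8.12 and 2.42 CPM for CXCL8, 3.01 and 0.907 CPM for CXCL1 and 16.1 and 7.04 CPM for ICAM1. With androgen they were at 10.8 and 63.0 CPM for BIRC3, 0.649 and 9.94 CPM for CCL20 and 5.06 and 46.9 CPM for CXCL1. A larger gap than that of CCL20 was found in 0.13% of 13042 genes, and than that of CXCL1 in 0.207%. TRAF1 did not follow them, at 3.98 and 1.93 CPM. CXCL10 and CCL2 lay apart in the same direction as BIRC3 in the control libraries, at 926 and 150 and at 677 and 235 reads. What sets these libraries apart was not tested.

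**Figure D4:**
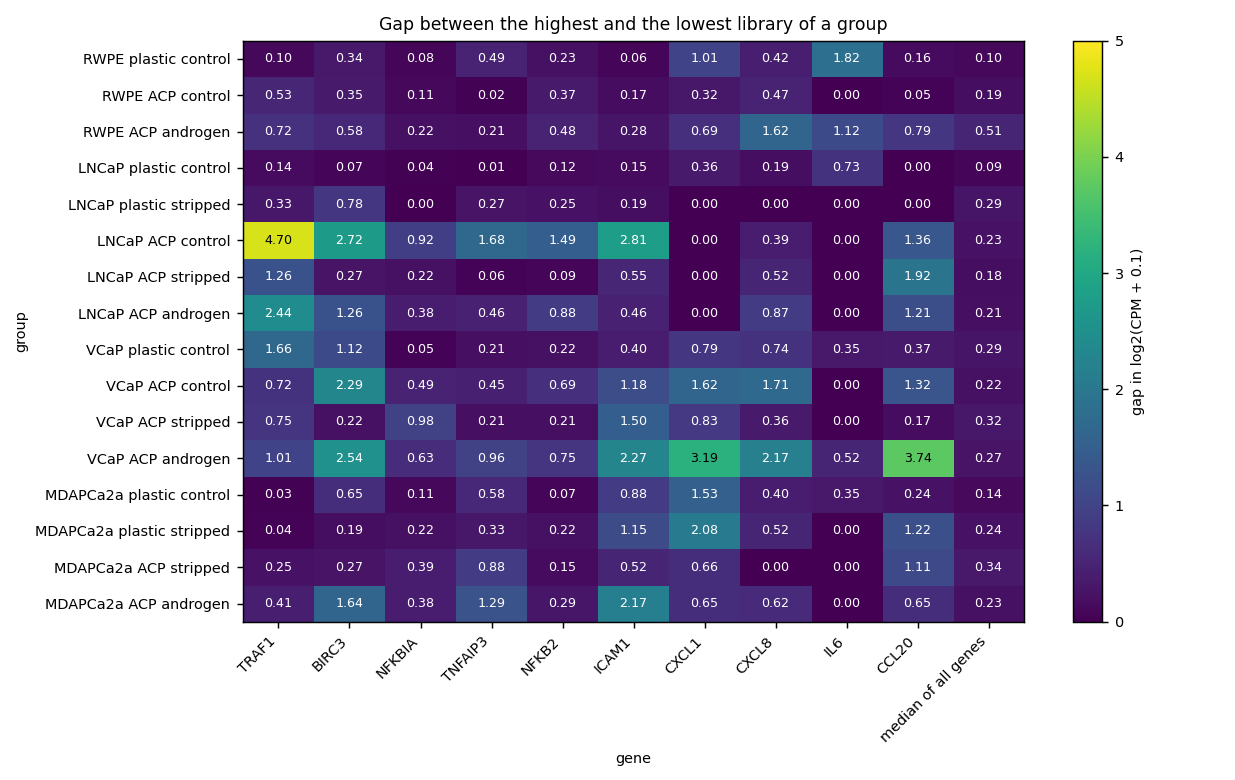
Gap in log2(CPM + 0.1) between the highest and lowest library of each of 16 groups with replicates (rows) for each gene (columns), beside the median gap of all genes with at least 1 CPM. TRAF1 in LNCaP control on ACP (4.70) and CCL20 (3.74) and CXCL1 (3.19) in VCaP with androgen are the widest, and the median of all genes is at most 0.51.

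On plastic in control medium the 4 lines had their own patterns of the 9 tested members. Each line was in its own control medium, serum-free in RWPE, and MDAPCa2a also had the FNC coating. Line, medium and coating cannot be told apart in these comparisons. BIRC3 was highest in MDAPCa2a, at 175 and 111 CPM, then in RWPE at 21.7 and 27.5, in VCaP at 18.4 and 8.43 and in LNCaP at 11.3 and 10.8 CPM. MDAPCa2a differed from each of the other lines by edgeR (log2 2.54 ± 0.74 against RWPE, adjusted p = 0.00524), and no other pair of lines passed for this gene. ICAM1 was at 12.0 and 11.5 CPM in RWPE, 9.16 and 6.94 in VCaP, 2.26 and 1.19 in MDAPCa2a and 0.507 and 0.574 CPM in LNCaP. TNFAIP3 was at 15.6 and 10.4 CPM in MDAPCa2a, 6.0 and 8.45 in RWPE, 4.20 and 4.17 in LNCaP and 3.30 and 3.83 CPM in VCaP. NFKB2 was at 108 and 91.6 CPM in RWPE, 97.2 and 89.6 in LNCaP, 67.0 and 63.7 in MDAPCa2a and 34.3 and 40.0 CPM in VCaP. NFKBIA varied least, from 52.4 to 91.0 CPM.

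In each pair of lines a large share of all genes was called. LNCaP against RWPE had 3 of 9 members called, all lower (57.4% of all genes). ICAM1 was lower by a log2 change of -4.43 ± 0.75 (edgeR adjusted p = 2.0e-05), and TRAF1, at 0.951 and 1.06 against 4.67 and 4.35 CPM, by -2.16 ± 0.85 (adjusted p = 0.0332). CCL20 had 0 reads in both LNCaP libraries and 21 and 25 in RWPE, at least 18.4-fold lower. VCaP against RWPE also had 3, all lower (62.4% of genes). NFKB2 was at -1.42 ± 0.34 (adjusted p = 7.33e-04), TNFAIP3 at -1.02 ± 0.42 (adjusted p = 0.0397), and CCL20 had 1 and 0 reads. MDAPCa2a against RWPE had 3 (56.7% of genes), with BIRC3 higher and ICAM1 (-2.77 ± 0.68) and TRAF1 (-2.01 ± 0.86, adjusted p = 0.0488) lower.

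Between the cancer lines, VCaP against LNCaP had 3 of 9 called (52.6% of genes), with TRAF1 and ICAM1 higher (2.33 ± 0.86 and 3.89 ± 0.74) and NFKB2 lower (-1.33 ± 0.34). MDAPCa2a against LNCaP had 3 higher (40.2% of genes), with BIRC3 at 3.69 ± 0.78, TNFAIP3 at 1.64 ± 0.42 and NFKBIA at 0.73 ± 0.27. MDAPCa2a against VCaP had 6 called (52.4% of genes), 4 higher and 2 lower, with BIRC3 at 3.42 ± 0.77, TNFAIP3 at 1.87 ± 0.43 and ICAM1 at -2.22 ± 0.68. The share of members called was below that of all genes in 5 of these pairs and above it in the last, where NFKBIA and NFKB2 lost the call with RLE size factors and with DESeq2. The calls of TRAF1 against RWPE and of NFKBIA and NFKB2 in MDAPCa2a were lost without any 1 library compared. Lost in 3 of 4 such fits were TNFAIP3 in VCaP against RWPE and TRAF1 in VCaP against LNCaP and in MDAPCa2a against VCaP. Lost in 1 of 4 were BIRC3 in MDAPCa2a against RWPE, CCL20 in VCaP against RWPE and ICAM1 in MDAPCa2a against VCaP. The other calls held without each. Among them were ICAM1 in LNCaP, BIRC3 in MDAPCa2a against LNCaP and VCaP, and NFKB2 in VCaP against RWPE and LNCaP.

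Across the 34 libraries, each taken as its difference from its line's mean log2 CPM, the closest pair of members was TNFAIP3 and NFKB2 (Pearson r = 0.80), with CXCL1 and CXCL8 at 0.78. The lowest of the 36 pairs was TRAF1 and CCL20 (-0.14). Libraries share lines, conditions and perhaps library sets, and these values are a description. Among 15550 genes, those most like BIRC3 were IL32 (0.84), RELB (0.82) and SAA2 (0.78). Those most like CXCL8 were KCMF1 (0.82), CXCL3 (0.80) and UBE2F (0.80), and those most like TRAF1 were NNT (0.82), C10orf90 (0.81) and MMP12 (0.80).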

How the data were processed

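The deposited file holds whole-number read counts per gene. STAR, HTSeq and hg19 are named in the submitters' processing notes, with no versions or settings. Samples were grouped by their labels. The members and gene lists were chosen with earlier results of these data known.

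The main test was edgeR's quasi-likelihood test (version 4.0.16, R 4.3.3). Library sizes were scaled by TMM, and low genes were removed by filterByExpr at 10 counts. P-values were adjusted over all genes tested (Benjamini-Hochberg), and a gene was called below 0.05. Shares of all genes called are those of the main edgeR fits after adjustment. None were worked out for DESeq2, the other alternatives or fits with a library left out. Comparisons within a line came from a model of its own groups (4 or 5 residual degrees of freedom), and those between lines a fit of all 34 libraries (17). Standard errors are the size of a log2 change over the root of its F value. CPM use TMM sizes over all libraries. Groups of 2 libraries can lie apart in unchanged genes too, and the share of all genes that did so was not worked out. A count of 0 was given a limit of 3 reads over a group, and ratios with few reads have exact 95% intervals, both for counting error only. All 10 members were described, and of the other pathway lists the largest rise and fall per list may be named. Likeness is Pearson r of log2 CPM with a prior count of 1. Alternatives were RLE size factors, no count filter, DESeq2 1.42.0, a replicate block, a fit of all lines, plain totals and leaving out each library. Upstream sequences come from RefSeq on GRCh38.p14, and no coordinate was taken from the count table. The steps were tested on simulated counts. Total counts per library, 15440141 to 44779246, limit what can be said of genes with few reads. The 12 genes with date-like values in 2 RWPE libraries hold no member.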

Additional observations from a re-analysis of the deposited data

Results flagged for a closer look

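The effect of androgen on ACP differed between VCaP and LNCaP for TNFAIP3 and CCL20, by a test of the difference itself in edgeR's fit of all lines. For TNFAIP3 the difference of log2 changes was 2.17 (adjusted p = 0.0221). With 1 library left out it ran from 1.59 to 2.58, and 5 of 8 such fits ended the call, with a highest adjusted p of 0.151. For CCL20 it was 6.07 (adjusted p = 0.0125), from 3.03 to 10.04 with 1 library left out, and 3 of 8 such fits ended the call. CCL20 had at most 43 reads in each LNCaP library and failed the filter in LNCaP's own fit. In VCaP's own fit its rise with androgen against stripped serum was not called.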

How the results depend on the processing

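Counts of members called by edgeR that moved by more than 1.5 times, or from or to 0, are given here, and smaller moves are not. Without the count filter they were 4 (from 1) for LNCaP on ACP against plastic in control medium, 2 (from 0) for VCaP, and 3 (from 0) in stripped serum for LNCaP and for MDAPCa2a. They were also 3 (from 0) for LNCaP stripped serum on plastic, 4 (from 1) on ACP, 2 (from 0) for LNCaP androgen against stripped serum and 3 (from 0) against control, 7 (from 4) for VCaP androgen against stripped serum, 5 (from 3) for MDAPCa2a against LNCaP, and 3 (from 0) and 4 (from 2) for the differences LNCaP minus MDAPCa2a and VCaP minus LNCaP. RLE gave 0 (from 1) for LNCaP on ACP in control medium. DESeq2 gave 1 for VCaP on ACP in control medium, 3 for MDAPCa2a in stripped serum, and 2 and 4 for those differences. The fit of all lines gave 1 (from 2) for RWPE, 0 for LNCaP and 1 for VCaP on ACP in control medium, 1 for LNCaP on ACP in stripped serum and for stripped serum on plastic, and 0 for RWPE androgen.

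Replicate numbers were not used as pairs in the main test. Same-numbered libraries deviated together with r from -0.337 to 0.42 over 25 pairs of groups, of which 6 were above 0.1. Such values cannot decide whether same-numbered libraries of some groups were paired. The replicate block gave 1 (from 0) for LNCaP stripped serum on plastic, 2 (from 1) for RWPE androgen and 3 (from 6) for MDAPCa2a against VCaP.

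Leaving out 1 library gave 0 to 1 members for RWPE and 0 to 3 for LNCaP on ACP in control medium, 0 to 1 for MDAPCa2a in stripped serum, and 0 to 6 for LNCaP stripped serum on ACP. It gave 1 to 6 for VCaP androgen against stripped serum, 0 to 3 against control, 0 to 3 for RWPE androgen and 0 to 4 for LNCaP androgen against control. For lines it gave 1 to 3 for VCaP and 1 to 2 for MDAPCa2a against RWPE, 2 to 4 for MDAPCa2a against VCaP, and 0 to 3 for the difference VCaP minus LNCaP. The VCaP plastic stripped group has 1 library, which was not left out. No share of all genes was worked out beside these counts, and the cause of these changes was not tested. Of 149 leave-one-out fits of the 35 single-gene calls, 80 kept the call and 69 lost it, and no single-gene call of a member changed direction under any alternative run. Low counts of IL6 in all lines, of CXCL1 and CXCL8 outside VCaP, and of CCL20 outside VCaP and RWPE limit what was detectable.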
